A study of Mus musculus with 4 samples.

Results

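The 10 genes described here form the core of the canonical Wnt pathway in F123-ESCs. They are Ctnnb1, which codes for beta-catenin, the destruction complex genes Apc, Axin1, Axin2, Gsk3a and Gsk3b, and the TCF/LEF factors Tcf7, Tcf7l1, Tcf7l2 and Lef1. They were chosen by symbol and all 10 were found among the 24026 genes of the expression table. F123-ESCs are a male hybrid mouse embryonic stem cell (ESC) line from an F1 cross, with maternal chromosomes of S129/Jae and paternal chromosomes of Cast (CAST). All 4 RNAseq libraries, replicates 1 to 4, came from untreated cells of this 1 line with the genotype S129/CAST. The cells were kept in medium with KSR and LIF on feeder fibroblasts, and were moved to feeder-free gelatin for at least 2 passages before harvest. The medium as described lists no added Wnt ligand and no Gsk3 inhibitor. There is no second condition, so the comparison the design allows is between the alleles of the same library. Nothing says that the libraries came from separate cultures, so p-values measure the spread between these libraries, which may be technical. Levels were compared within libraries by a two-sided exact permutation test that flips signs, whose p cannot go below 0.125 with 4 libraries.

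Without a Wnt signal, the scaffolds Axin and Apc hold beta-catenin beside the kinase Gsk3, which marks it for breakdown. When a Wnt ligand binds its Frizzled and Lrp receptors, this destruction complex is held back, beta-catenin accumulates and enters the nucleus, and it binds the TCF/LEF factors at their target genes. In ESCs the pathway is known for its part in self-renewal, where beta-catenin relieves repression by Tcf7l1, and beta-catenin also links cadherins to alpha-catenin at cell junctions. Axin2 is a widely used target gene of the pathway and part of its negative feedback.

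The values are RPKM, which the authors made for each allele from reads that cover a SNP between the strains. RPKM are reads scaled to gene length and to a total of reads. Each allele column had its own recovered total, in replicate 1 28772351 reads for S129 and 27855621 for CAST. A difference between alleles is thus relative to all reads of each allele. Those of S129 include the X, which this male line holds only from S129. A level below is the mean of both alleles in a library, and levels of different genes depend on the SNPs they hold as well as on their transcripts. Totals of S129 and CAST reads recovered from the values ranged from 34120416 in replicate 4 to 56627972 in replicate 1, of which the 10 genes held between 19221 and 36289. All 8 ESC markers examined had at least 1 RPKM, and their summed level ranged from 7698 to 9330 RPKM over the libraries. Most of this sum was Dppa5a at 7111 RPKM, while the median of the 8 was 105 RPKM and Pou5f1 was the lowest at 29.5 RPKM. Marker sums here are of RPKM as deposited. Of 10 feeder fibroblast markers, 7 had at least 1 RPKM, and their sum ranged from 492 to 585 RPKM, led by Acta2 at 339.5 RPKM. Summed levels ranged from 5.85 to 6.80 RPKM for 6 primitive endoderm markers, of which 3 had at least 1 RPKM, and from 12.2 to 15.1 RPKM for 5 primitive streak markers, of which 2 did. The 4 neural markers summed to between 85.5 and 107 RPKM, 2 of them with at least 1 RPKM and Nes the highest at 76.2 RPKM. No marker was at 0 in all libraries, and the part of other cells in the values below was not tested. In these bulk samples, fewer cells of a type and less RNA per cell cannot be told apart.

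The starts of these genes are shown by 2 examples, beta-catenin as the gene with the highest level and Axin2 as the feedback target. RefSeq promoter windows on GRCm38.p6, from 250 bases before to 50 bases after an annotated start, matched 8 of the 10 genes with 14 windows. The 250 bases before a start of Ctnnb1 (chr9:120933150-120933399, plus strand) and of Axin2 (chr11:108920099-108920348, plus strand) follow 5′ to 3′, with CpG dinucleotides in capitals.
Ctnnb1: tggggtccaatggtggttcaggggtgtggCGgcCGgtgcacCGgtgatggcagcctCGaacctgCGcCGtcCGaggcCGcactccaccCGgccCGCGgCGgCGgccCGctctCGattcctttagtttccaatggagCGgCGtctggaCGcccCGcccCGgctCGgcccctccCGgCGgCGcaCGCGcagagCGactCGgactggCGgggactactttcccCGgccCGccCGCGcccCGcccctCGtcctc
Axin2: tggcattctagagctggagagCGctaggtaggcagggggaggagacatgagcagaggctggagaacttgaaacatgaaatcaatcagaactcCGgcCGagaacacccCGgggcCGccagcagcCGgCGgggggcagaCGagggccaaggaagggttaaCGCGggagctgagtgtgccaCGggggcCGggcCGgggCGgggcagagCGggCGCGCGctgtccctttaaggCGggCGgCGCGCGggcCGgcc
These stretches hold 35 and 24 CpGs. Over the 14 windows of 300 bases, the CpG number ranged from 5 to 51 with a median of 21, against a median of 7 over all 32851 windows, and 12 of the 14 were above that median. The letters CTTTGAT, a core that TCF/LEF factors bind, searched on both strands, were found in 0 of the 14 windows and in 3.73% of all windows. This says only that these letters are not in these windows.

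Beta-catenin had the highest level of the 10 genes. Ctnnb1 (ENSMUSG00000006932; mm10, chromosome 9, 120929216 to 120960507, plus strand) was at 1228, 1286, 1307 and 1013 RPKM in replicates 1 to 4, a mean of 1208 ± 135 RPKM (SD, n = 4). Replicate 4 was the lowest and the other libraries lay close together. Each of its 8 values rested on 6257 to 12958 reads. The gene length that makes all 8 values whole reads is 364 bp, that of the short coding transcript Ctnnb1-203, whereas the longest annotated coding transcript has 3623 bp and the union of all exons 5192 bp. With these lengths the same reads gave 121 ± 13.5 RPKM and 84.7 ± 9.45 RPKM (SD, n = 4), so that the deposited value is 14.3 times that by exon union. Among 12511 genes with at least 1 RPKM as the sum of both alleles and a recovered length, only 2.13% had a ratio as large. A multiple of a recovered length explains the values equally well, and reads given here are the fewest possible. Ctnnb1 stayed the highest of the 10 genes by all 3 lengths, and Ulk4 and 4930593C16Rik overlap it on the other strand. Whether reads were counted by strand is not given in the sources used here, so reads of overlapping genes may not be told apart. This also holds for Apc with Gm10548, Tcf7l1 with Gm15401 and Gsk3a with 9130221H12Rik. Annotated genes that are not in the expression table overlap Tcf7, Lef1, Axin1, Axin2 and Gsk3b on the other strand, with the same limit.

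**Figure D1:**
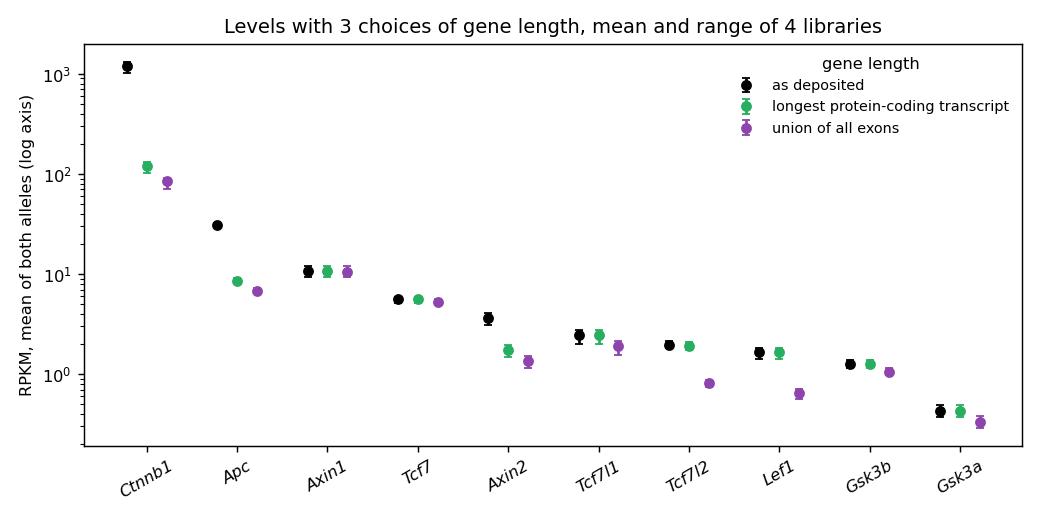
Levels of the 10 genes in RPKM (log axis), as the mean of both alleles, with the length behind the deposited values (black), the longest annotated coding transcript (green) and the union of exons (purple). Points are means and bars the range of 4 libraries; Ctnnb1 falls from 1208 to 121 and 84.7 RPKM, and Apc lies above Axin1 only by the deposited length.

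Among the destruction complex genes, the scaffolds were higher than the kinases per length. Apc (ENSMUSG00000005871; chromosome 18, 34220924 to 34322552, plus strand) was at 30.3, 29.7, 32.7 and 29.8 RPKM in replicates 1 to 4, with a mean of 30.6 ± 1.41 RPKM (SD, n = 4). Its deposited length is 3588 bp, of a short transcript, and with its longest coding transcript of 12811 bp its level was 8.58 ± 0.39 RPKM. Axin1 (ENSMUSG00000024182; chromosome 17, 26138688 to 26195811, plus strand) was at 10.0, 12.1, 11.5 and 9.45 RPKM, with a mean of 10.7 ± 1.22 RPKM, and its length did not depend on this choice. Thus Apc was above Axin1 in 4 of 4 libraries as deposited, and below it in 4 of 4 with the longest coding transcripts, with a log2(RPKM+0.1) difference of 0.32 ± 0.15 (SD, n = 4).

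Axin2 (ENSMUSG00000000142; chromosome 11, 108920349 to 108950783, plus strand), the feedback target, was at 3.08, 3.87, 4.10 and 3.46 RPKM, with a mean of 3.63 ± 0.45 RPKM (SD, n = 4). Replicate 1 was the lowest and replicate 3 the highest. Its deposited length of 2045 bp is that of a transcript annotated as non-coding, and with the longest coding transcript of 4260 bp its level was 1.74 ± 0.22 RPKM. Within libraries Axin1 exceeded its paralog Axin2 in 4 of 4 libraries, with a log2(RPKM+0.1) difference of 1.54 ± 0.12 or 2.91-fold on this scale (SD, n = 4, p = 0.125 by the exact permutation test). The difference was 2.56 ± 0.12 with the longest coding transcripts.

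The kinase genes had the lowest levels as deposited, although Tcf7l2 and Lef1 fell below Gsk3b with exon-union lengths. Gsk3b (ENSMUSG00000022812; chromosome 16, 38089001 to 38246084, plus strand) was at 1.15, 1.28, 1.37 and 1.20 RPKM, with a mean of 1.25 ± 0.098 RPKM (SD, n = 4). Gsk3a (ENSMUSG00000057177; chromosome 7, 25228258 to 25237851, minus strand) was at 0.405, 0.376, 0.487 and 0.452 RPKM, with a mean of 0.430 ± 0.049 RPKM. Gsk3b, of 8303 bp, rested on 1977 reads and Gsk3a, of 2260 bp, on 183. Gsk3b exceeded Gsk3a in 4 of 4 libraries, with a log2(RPKM+0.1) difference of 1.35 ± 0.13 or 2.55-fold on this scale (SD, n = 4, p = 0.125 by the exact permutation test). The added 0.1 understates the fold between levels this low. The difference fell to 0.65 with a pseudocount of 1.

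Of the TCF/LEF factors, Tcf7 was the highest. Tcf7 (ENSMUSG00000000782; chromosome 11, 52252371 to 52283014, minus strand) was at 5.15, 5.93, 5.92 and 5.43 RPKM, with a mean of 5.61 ± 0.38 RPKM (SD, n = 4). Tcf7l1 (ENSMUSG00000055799; chromosome 6, 72626378 to 72789254, minus strand), known as the repressor among them in ESCs, was at 2.00, 2.53, 2.77 and 2.47 RPKM, with a mean of 2.44 ± 0.32 RPKM. Tcf7l2 (ENSMUSG00000024985; chromosome 19, 55741820 to 55933654, plus strand) was at 1.81, 2.00, 2.15 and 1.95 RPKM, with a mean of 1.97 ± 0.14 RPKM. Replicate 1 was the lowest library for all 3 of them. Lef1 (ENSMUSG00000027985; chromosome 3, 131110471 to 131224356, plus strand) was at 1.41, 1.71, 1.67 and 1.81 RPKM, with a mean of 1.65 ± 0.17 RPKM, and was also lowest in replicate 1.

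As a share of the summed RPKM of the 4 factors, Tcf7 made up 48.1% ± 1.41, Tcf7l1 20.9% ± 1.19, Tcf7l2 16.9% ± 0.46 and Lef1 14.1% ± 0.97 (SD, n = 4). The share of Lef1 was 9.91% ± 0.93 on the S129 allele and 18.1% ± 1.00 on the CAST allele. Tcf7l1 made up 24.2% ± 1.48 on the S129 allele and 17.7% ± 2.14 on the CAST allele. On S129 Lef1 was the lowest factor, while on CAST the shares of Lef1 and Tcf7l1 differed by less than their SDs. With exon-union lengths, the share of Tcf7 rose to 61.2% and those of Tcf7l2 and Lef1 fell to 9.36% and 7.58%.

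**Figure D2:**
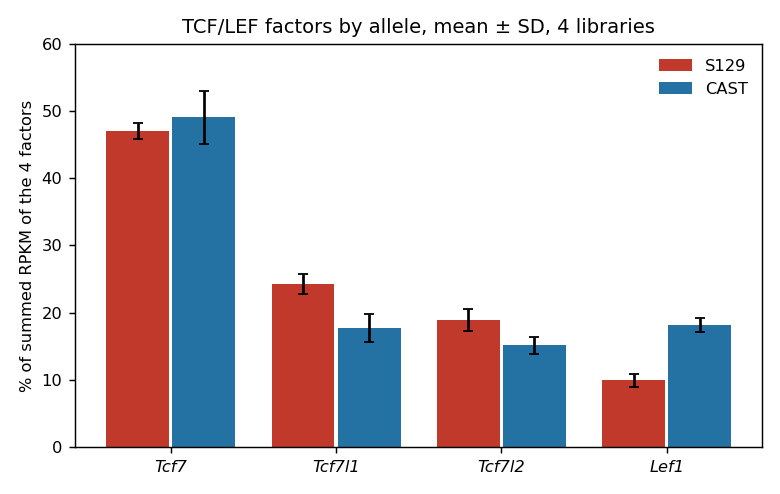
Share of each TCF/LEF factor in the summed RPKM of the 4 factors, in percent, on the S129 (red) and CAST (blue) allele. Bars are means and error bars SDs of 4 libraries; Lef1 is at 9.91% on S129 and 18.1% on CAST, while Tcf7 is the highest factor on both.

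In the order of levels from Ctnnb1 to Gsk3a, the ranges of the libraries overlapped for neighbours only between Tcf7l1 and Tcf7l2 and between Tcf7l2 and Lef1. In each of the 9 pairs of neighbours the higher gene was higher in 4 of 4 libraries (exact permutation test, p = 0.125 and adjusted p = 0.125 for each pair). The order was set by the means of these same libraries, so the test is no separate evidence for it. By the longest coding transcripts, Axin2 fell between Tcf7l2 and Lef1, and its range overlapped those of both. Coefficients of variation between libraries ranged from 4.60% for Apc to 13.1% for Tcf7l1 with a median of 10.7%, against 9.66% over 13341 genes. Replicate 1 was the lowest library for 6 of the 10 genes (Tcf7l1, Tcf7l2, Tcf7, Lef1, Axin2 and Gsk3b), and for 24.6% of the 13341 genes. Replicate 3 was the highest library for 7 of the 10, and for 39.7% of the 13341 genes. The cause of these library differences was not tested.

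**Figure D3:**
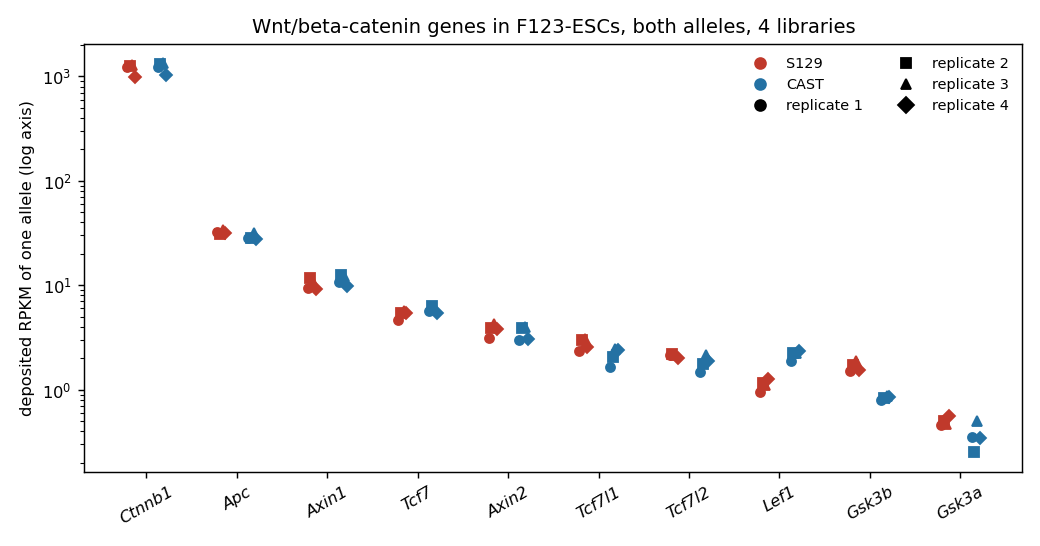
Deposited RPKM (log axis) of the 10 genes on the S129 (red) and CAST (blue) allele, with 1 point for each of 4 libraries. The alleles separate for Lef1, where all CAST points lie above S129, and for Gsk3b, where all S129 points lie above CAST.

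The alleles were compared within each library by limma on log2(RPKM+0.1), with p-values adjusted by the Benjamini-Hochberg method over 13341 genes with at least 1 RPKM over both alleles. Of the 10 genes, 9 passed this filter, and Gsk3a, with 0.430 RPKM, did not. Gsk3b, Tcf7l1 and Apc were higher on S129, Lef1 and Axin1 were higher on CAST, and Ctnnb1, Tcf7l2, Tcf7 and Axin2 did not pass an adjusted p of 0.05. These 5 of 9 stand beside 61.4% of 12869 autosomal genes called by the same rule, with 28.9% higher on S129 and 32.5% on CAST, so the share is not above that of all autosomal genes. With X-linked genes included the share called was 62.7%, of which 31.4% S129 and 31.3% CAST. The median size of the difference was 0.16 (log2) over the 9 genes and 0.29 over the autosomal genes. The values of the alleles did not overlap for 2 of the 10 genes, Gsk3b and Lef1, against 43.6% of autosomal genes. These 2 were also the only ones of the 9 tested that were called with a difference of at least 0.8 in size, a limit set after the values were seen, which 17% of autosomal genes passed.

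Gsk3b was the gene with the largest difference towards S129. Its S129 allele was at 1.51, 1.73, 1.87 and 1.54 RPKM in replicates 1 to 4, and its CAST allele at 0.791, 0.837, 0.877 and 0.850 RPKM. All S129 values lay above all CAST values. The difference was 0.90 (S129 minus CAST, log2(RPKM+0.1), standard error 0.050, adjusted p = 0.000227 from limma), or 1.87-fold on this scale, in 4 of 4 libraries. With a pseudocount of 0.01 it was 0.97. Of its 1977 reads over all libraries, 67.4% came from S129 (exact 95% Clopper-Pearson interval 65.3 to 69.5, which covers counting error only, since the reads carry no molecular identifiers). These shares are of reads as counted, and S129 held 50.9% of all reads of both alleles, which is the share of a gene without a difference in RPKM.

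Lef1 differed by as much towards CAST. Its S129 allele was at 0.958, 1.16, 1.10 and 1.27 RPKM, and its CAST allele at 1.87, 2.25, 2.25 and 2.35 RPKM. The alleles did not overlap here either. The difference was -0.90 (standard error 0.036, adjusted p = 8.61e-05 from limma), with CAST 1.87-fold higher in 4 of 4 libraries. S129 contributed 34.8% of its 1067 reads (exact 95% Clopper-Pearson interval 31.9 to 37.7).

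Tcf7l1 was higher on S129 by 0.36 (log2, standard error 0.090, adjusted p = 0.0250 from limma) in 4 of 4 libraries. Its S129 allele was at 2.37, 3.01, 3.08 and 2.55 RPKM and its CAST allele at 1.64, 2.04, 2.46 and 2.40 RPKM. The difference within a library was 0.50 and 0.54 in replicates 1 and 2, and 0.31 and 0.085 in replicates 3 and 4, and the alleles overlapped over the libraries. The call was lost when the alleles were compared as unpaired groups (adjusted p = 0.0666 from limma) and when replicate 1, 2 or 3 was left out, with adjusted p from 0.0731 to 0.0878.

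The scaffold Apc was higher on S129 by 0.16 (log2, standard error 0.032, adjusted p = 0.0130 from limma). Its S129 allele was at 32.1, 31.2, 34.0 and 31.8 RPKM and its CAST allele at 28.5, 28.2, 31.4 and 27.8 RPKM, S129 being higher in each library. With 20839 reads, the S129 share of Apc was 53.6% (exact 95% Clopper-Pearson interval 52.9 to 54.3). Axin1 was higher on CAST by a similar amount, with a difference of -0.14 (standard error 0.037, adjusted p = 0.0311 from limma). Its S129 allele was at 9.35, 11.7, 10.7 and 9.16 RPKM and its CAST allele at 10.7, 12.4, 12.2 and 9.74 RPKM, CAST being higher in each library. Unpaired, neither was called (adjusted p = 0.106 for Apc and 0.352 for Axin1 from limma). Neither call held with every library left out in turn. The differences then ranged from 0.14 to 0.17 for Apc and from -0.16 to -0.12 for Axin1. Without replicate 1 or 2 the adjusted p of Apc was 0.0548 and 0.0540, and without replicate 1, 2 or 3 that of Axin1 was 0.107, 0.0680 and 0.115, while Axin1 was also lost when alleles were centred (adjusted p = 0.0587) or without the filter (adjusted p = 0.0718).

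For beta-catenin the difference was -0.034 (standard error 0.033, adjusted p = 0.408 from limma). The S129 allele of Ctnnb1 was at 1237, 1270, 1284 and 988 RPKM and the CAST allele at 1219, 1302, 1331 and 1037 RPKM, with S129 higher in 1 of 4 libraries. The S129 share of its 84332 reads was 50.5% (exact 95% Clopper-Pearson interval 50.1 to 50.8), below the share of all reads given above. That share includes X-linked reads, which only S129 has here. With the alleles centred on the median autosomal difference, Ctnnb1 was at -0.011 (adjusted p = 0.780 from limma). Tcf7l2 had a difference of 0.22 (standard error 0.10, adjusted p = 0.121), with S129 higher in 3 of 4 libraries. Its differences of 0.52, 0.30, -0.0010 and 0.071 in replicates 1 to 4 spread as widely as their mean. Tcf7 had a difference of -0.14 (standard error 0.064, adjusted p = 0.122), with CAST higher in 3 of 4 libraries. Axin2 had 0.12 (standard error 0.064, adjusted p = 0.172), with S129 higher in 3 of 4. For Gsk3a, tested only without the filter, the difference was 0.39 (standard error 0.16, adjusted p = 0.125 from limma) and the S129 share of 183 reads was 58.5% (exact 95% Clopper-Pearson interval 51.0 to 65.7).

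**Figure D4:**
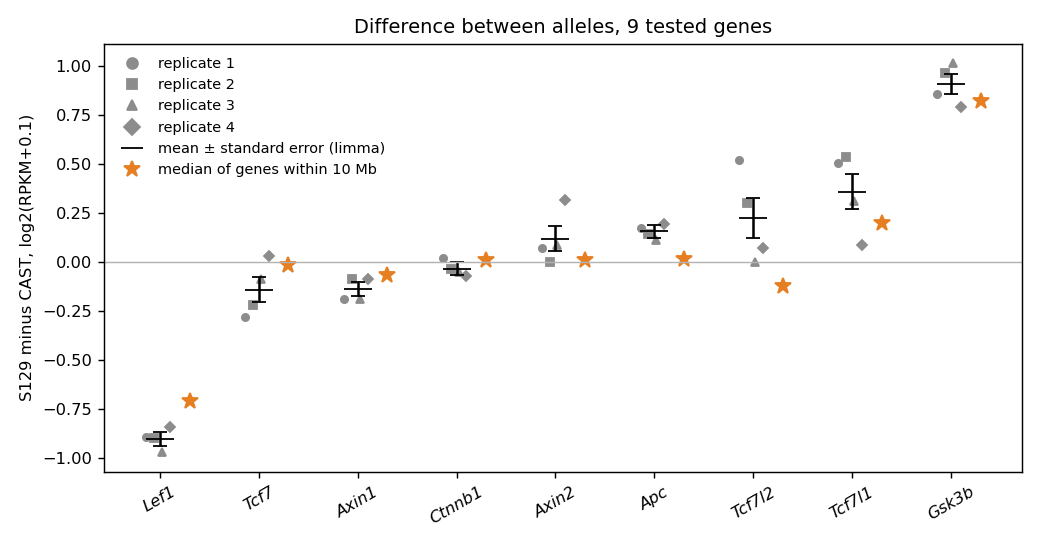
Difference between the alleles, S129 minus CAST on the log2(RPKM+0.1) scale, for the 9 tested genes. Grey points are libraries, black bars the mean ± standard error from limma and orange stars the median of protein-coding genes within 10 Mb, averaged over libraries; the stars of Gsk3b and Lef1 lie near the genes, at 0.82 and -0.71.

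Gsk3b and Lef1 lie on chromosomes 16 and 3, where most genes around them differed in the same direction. Of the 89 tested protein-coding genes that start within 10 Mb of Gsk3b, 96.6% were higher on S129, and their differences had quartiles of 0.64 and 1.03 around a median of 0.83. Gsk3b was at the 62.9th percentile of them. Of the 73 such genes around Lef1, 90.4% were higher on CAST, with quartiles of -0.99 and -0.46 around a median of -0.70, and Lef1 was at the 30.1th percentile. Around Tcf7l1, 66.7% of 45 genes were higher on S129 with a median of 0.24. For the other 6 genes the median of the neighbours lay between -0.096 and 0.022, as around Ctnnb1, where 55.1% of 78 genes were higher on S129.

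When the median of these neighbours was taken from each gene in each library, the difference of Gsk3b was 0.086 (log2, standard error 0.049, adjusted p = 0.204 from limma) and that of Lef1 -0.19 (standard error 0.043, adjusted p = 0.0190 from limma). Tcf7l1 was at 0.16 (adjusted p = 0.208), Axin1 at -0.071 (adjusted p = 0.205), and Ctnnb1 at -0.045 (adjusted p = 0.286), none of them called by limma. Apc kept a difference of 0.14 (standard error 0.037, adjusted p = 0.0328 from limma), and Tcf7l2, whose neighbours leaned to CAST, had one of 0.34 (standard error 0.092, adjusted p = 0.0321 from limma). In all, 3 of 9 were called in this comparison, against 56.7% of the 12869 autosomal genes, 29% higher on S129 and 27.7% on CAST. With a pseudocount of 1 the sign turned for Lef1, to 0.031 (adjusted p = 0.440 from limma), and for Gsk3b, to -0.18 (adjusted p = 0.0124 from limma). With neighbours within 5 Mb, Gsk3b was called at 0.17 (adjusted p = 0.0318 from limma), while Lef1 and Tcf7l2 were not (adjusted p = 0.0912 and 0.134 from limma). Unpaired, the calls of Apc and Lef1 were lost (adjusted p = 0.167 and 0.191 from limma). Each of the 3 calls was lost with some single libraries left out, though the differences kept their direction. Adjusted p by limma was then from 0.0836 to 0.117 for Apc without replicate 1, 2 or 4. It was from 0.0704 to 0.0721 for Lef1 without replicate 1, 2 or 3. For Tcf7l2 it was from 0.0512 to 0.109 without replicate 1, 2 or 4. Lef1 without replicate 2 was still at -0.19. The cause of the shared shift was not tested.

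**Figure D5:**
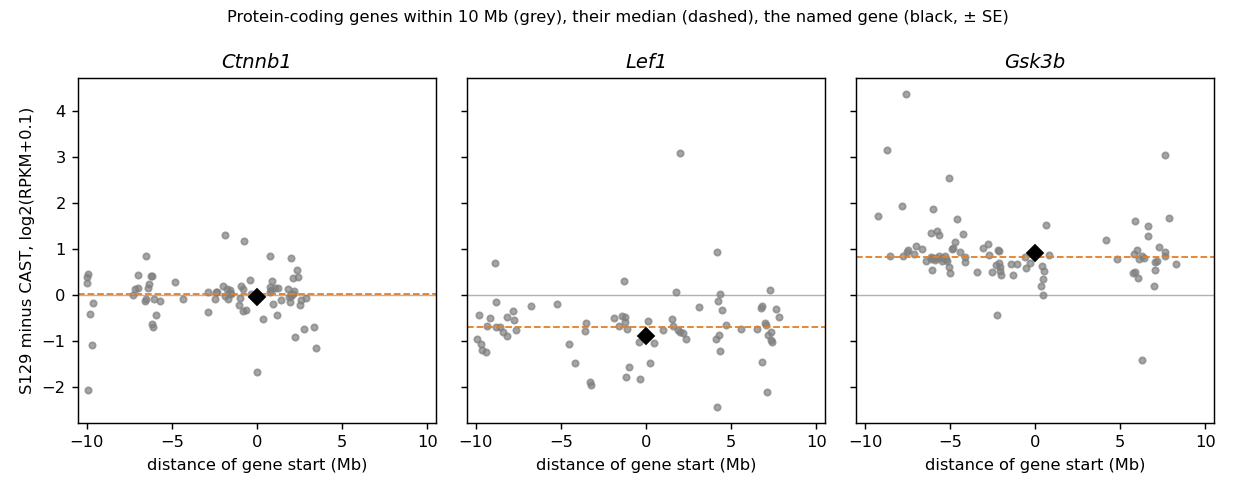
Allele difference (S129 minus CAST, log2(RPKM+0.1)) of protein-coding genes by the distance of their start from that of Ctnnb1, Lef1 and Gsk3b, in Mb. Grey points are genes, the dashed line their median (0.022, -0.70 and 0.83) and the black diamond the named gene with its standard error; most points around Lef1 lie below 0 and most around Gsk3b above 0.

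Other genes of the pathway were taken from 9 lists with 118 genes, of which 117 were in the table. Of these, 75 had at least 1 RPKM as the mean of both alleles, the measure of the counts per list below. The test took genes with 1 RPKM or more as the sum of both alleles, so it can hold more genes. Of 86 autosomal genes tested, 28 were higher on S129 and 31 on CAST by limma, 68.6% in all against the 61.4% of autosomal genes. The median difference over the 86 was 0.0026 and the median size 0.31, against -0.021 and 0.29 over all autosomal genes. Those named below had the highest level in their list or a called difference of at least 1 (log2). Counts per list stand beside the 28.9% of autosomal genes higher on S129 and the 32.5% higher on CAST. The lists were not compared by a test.

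Of 19 Wnt ligands, 6 had at least 1 RPKM, and of 10 tested 4 were higher on S129 and 3 on CAST. Wnt8a had the highest level, at 9.42 ± 0.46 RPKM (SD, n = 4), and the largest difference among ligands, at -1.27 (adjusted p = 0.000133 from limma), with 5.48 RPKM on S129 and 13.4 RPKM on CAST. Wnt6 was also higher on CAST, with a difference of -1.15 (adjusted p = 5.04e-05 from limma). Both kept these differences beyond their neighbours, at -1.29 and -1.08. Wnt1 was listed at 0 in all 8 columns.

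For secretion, Wls, which carries Wnt ligands to the cell surface, was at 13.1 ± 1.99 RPKM and higher on CAST by 0.59 (log2; difference -0.59, adjusted p = 0.000445 from limma). Wls lies on chromosome 3, where its neighbours had a median of -0.80, and beyond them it was higher on S129, at 0.21 (adjusted p = 0.0412 from limma). Notum, an enzyme that inactivates Wnt ligands, had the largest autosomal difference of all lists, at 2.63 (adjusted p = 0.000141 from limma), with 3.26 ± 0.84 RPKM on S129 and 0.432 ± 0.032 RPKM on CAST (SD, n = 4 each). Porcn, which attaches the lipid of Wnt ligands, is X-linked, as are Amer1, Med12 and Cdx4, and these 4 were counted apart since the male line has only the S129 X. Their mean CAST levels were at most 0.0053 RPKM, while Porcn was at a mean of 4.39 RPKM on S129.

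Among 15 receptor genes, 12 had at least 1 RPKM, and 4 of 14 tested were higher on S129 and 6 on CAST, none by 1 or more. Ror2 had the highest deposited level, 55.3 ± 1.73 RPKM, which rests on a length of 324 bp and is 4.50 RPKM with the longest coding transcript. By that length it was below Fzd7 at 9.98 RPKM. The R-spondin and receptor turnover list had 4 of 9 genes at 1 RPKM or more, led as deposited by Rspo3 at 8.42 ± 1.54 RPKM on a length of 877 bp, or 2.39 RPKM with the longest coding transcript, and 2 of 4 tested were higher on S129 and 1 on CAST. Of 13 secreted inhibitors 3 had at least 1 RPKM, led by Sfrp1 at 9.67 ± 0.83 RPKM, and 3 of 7 tested were higher on S129 and 2 on CAST. Sfrp4 was higher on S129, with a difference of 1.65 (adjusted p = 0.00217 from limma), while Sfrp2 was listed at 0.

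Among relay and other destruction complex genes, 18 of 20 had at least 1 RPKM. Of 18 tested, 6 were higher on S129 and 2 on CAST, 44.4% against the 61.4% of autosomal genes. Btrc, which recognizes phosphorylated beta-catenin for ubiquitination, was highest as deposited at 119 ± 10.7 RPKM, on a length of 438 bp, and had a difference of -0.93 (adjusted p = 6.11e-05 from limma). With the longest coding transcript Btrc was at 17.2 RPKM, below Ppp2r1a at 79.7 RPKM and Csnk1a1 at 74.9 RPKM. Among nuclear cofactors, 13 of the 18 in the table had at least 1 RPKM, and 3 of 14 tested were higher on S129 and 6 on CAST. Pygo2 led them as deposited at 86.6 ± 4.27 RPKM on a length of 584 bp. With the longest coding transcript it was at 15.8 RPKM, below Ctnnbip1 at 16.9 RPKM. Cby1, at 57.2 RPKM as deposited, had no recovered length and could not be compared in this way.

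All 5 tested genes for beta-catenin partners at cell junctions were called between alleles, 2 higher on S129 and 3 on CAST, where 61.4% of autosomal genes were called. Alpha-catenin, Ctnna1, had the highest level as deposited at 113 ± 9.95 RPKM. No length was recovered for Ctnna1, so its level with the longest coding transcript is not known. Cdh1 was at 48.6 RPKM as deposited and with the longest coding transcript, both of 4430 bp. Jup, which codes for plakoglobin, a relative of beta-catenin, was higher on S129, with a difference of 1.17 (adjusted p = 3.39e-05 from limma) and alleles at 48.3 and 21.4 RPKM. Of 19 reported targets, 13 had at least 1 RPKM, and 4 of 15 tested were higher on S129 and 8 on CAST (4 and 6 beyond their neighbours). Tfcp2l1, a pluripotency factor, was highest as deposited at 583 ± 37.6 RPKM on a length of 478 bp, or 30.1 RPKM with the longest coding transcript. By that length it was below Esrrb at 63.1 RPKM. Notum, named above, also stands in this list. Ascl2 was higher on S129, with a difference of 1.25 (adjusted p = 0.00123 from limma), and T, the Brachyury gene and also 1 of the primitive streak markers, was higher on CAST, with a difference of -1.10 (adjusted p = 0.000401 from limma).

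Other listed genes on chromosomes 3 and 16 also had neighbours with a shift. Only Dkk2 of them starts within 10 Mb of Lef1, and none within 10 Mb of Gsk3b. These genes were picked because their own neighbours had a median of at least 0.4 in size. Their direction is therefore no separate evidence of the shift. The 5 such genes on chromosome 3, Wnt2b, Wls, Dkk2, Bcl9 and Pygo2, were higher on CAST, with a median difference of -0.76 against -0.83 for their neighbours. On chromosome 16, Dvl3 and Crebbp, the 2 such genes, were higher on S129, with a median of 0.65 against 0.77. Beyond the neighbours, 1 of the 5 and 1 of the 2 were called by limma, Wls at 0.21 and Dvl3 at -0.40, both opposite in sign to their difference as deposited. The limit of 0.4 was chosen after the values were seen.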

How the data were processed

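RNA of untreated F123-ESCs was measured in 4 libraries, prepared by the authors with a stranded kit from polyA RNA and sequenced with paired reads of 150 bp. Per the labels and methods, the authors checked reads with FastQC, removed ribosomal RNA reads, trimmed with Trimmomatic 0.40, aligned with STAR to mm10 masked at SNPs, and divided reads by allele with SNPsplit. They deposited RPKM for each gene, allele and library. The deposited average over libraries and its log10 were not used. The counting program, the annotation and the use of strand are not given in the sources used here. The 8 allele columns were assigned to libraries by their numbers, and a minus sign before the number of the first S129 column was ignored. Columns of other samples numbered 0.

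The 10 genes, the lists and the tests were chosen with earlier results of these data known. Genes were matched to GENCODE M21 (mm10) by identifier, 23995 of 24026. Read totals and gene lengths were recovered from the steps between RPKM values. Whole reads (tolerance 0.02 reads) were found for 19130 of 20243 genes above 0, or 94.5%, and for 17608 of these the length was that of the first listed transcript. Counts were used for shares and depth only, since the values are RPKM. Where lengths are compared, RPKM was recomputed from these reads.

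Alleles were compared with limma 3.58.1 in R 4.3.3 on S129 minus CAST of log2(RPKM+0.1) library by library. The 13341 genes tested had 1 RPKM or more as the sum of both alleles. A difference on this scale is understated for low genes. A call is an adjusted p (Benjamini-Hochberg) under 0.05. In a second fit, the median difference of tested protein-coding genes starting within 10 Mb, in the same library, was subtracted. The alleles are paired because both columns of a number hold reads of 1 library, and deviations of same-numbered columns correlated at 0.15 to 0.28 over 10906 genes, against -0.25 to 0.22 for different numbers. Libraries differed by more than sampling noise (chi-square per gene from 2.93 to 33.5). Replicates 2 and 3 were closest, at 2.93 on S129 and 4.62 on CAST, against 13.9 or more for every other pair. Other tests were two-sided exact permutation tests that flip signs over the libraries, in Python 3.11.15 with scipy 1.17.1.

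On simulated data for this comparison, with 12045 genes, limma recovered 94.2% of 103 genes changed by 1 (log2), 55.7% of 97 changed by 0.5, and called 0.0507% of unchanged genes. Only these 103 and 97 genes were changed there, while 61.4% of autosomal genes were called in the real data. The spread between simulated libraries was a fixed setting, so these rates do not carry over to the real comparison. Named genes were the 10 members and, for each list, the gene with the highest level and up to 4 called genes with a difference of at least 1. Alternatives were other pseudocounts, filters and gene lengths, alleles centred, no pairing, a variance trend, single alleles, medians, other windows, and each library left out. Lengths of the longest coding transcript and a pseudocount of 0.01 beyond neighbours were added after seeing the data. Precision is limited by 4 libraries and by the reads per gene given with the results. Protein sequences and SNP positions were not used here.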

Additional observations from a re-analysis of the deposited data

Results flagged for a closer look

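By Dixon's criterion, 0 of 26 quantities of the 10 genes (levels, allele differences and shares or ratios) held a library that stood apart, where chance would flag 1.3.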

How the results depend on the processing

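Of 466 values computed under alternatives, 374 kept their direction and their call or moved by less than the spread between libraries, 27 lost and 3 gained a call, 60 moved and 2 reversed. Allele differences of the 9 genes kept their direction in all 95 values, with 13 calls lost, all of Tcf7l1, Axin1 or Apc. Gsk3b and Lef1 kept their calls under every alternative in which they were tested. The S129 shares of reads moved by less than their intervals in all 50 values.

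The number of members higher on S129 was 3, and 1 with a filter of at least 5 RPKM or with no replicate block, and ranged from 1 to 3 with a library left out. The number higher on CAST was 2, and 1 with no filter, with at least 5 RPKM, with alleles centred or with no replicate block, and ranged from 1 to 2 with a library left out. With at least 5 RPKM, fewer genes entered the test, and list genes higher on S129 fell from 28 to 16. Beyond the neighbours, 2 members were higher on S129, 1 with no replicate block, and 0 to 2 with a library left out (0 without replicate 1 or 2, 1 without replicate 4). The number higher on CAST was 1, and 0 within 5 Mb, with no replicate block, and without replicate 1, 2 or 3. Tcf7l2 lost its call against the whole chromosome (adjusted p = 0.0627 from limma). Tcf7l1 gained a call beyond its neighbours without replicate 4, at 0.26 (adjusted p = 0.0362 from limma), and Gsk3b gained one against the whole chromosome, at 0.24 (adjusted p = 0.0139 from limma). Without pairing, the calls of Tcf7l1, Axin1 and Apc were lost, as were those of Apc and Lef1 beyond the neighbours. Leaving out the pairing changed no other call of a member.

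Beyond the neighbours, a pseudocount of 1 gave the reversed values of Lef1 at 0.031 and of Gsk3b at -0.18, where the differences before subtraction were -0.58 and 0.53. With 0.01, Lef1 was at -0.24 and Gsk3b at 0.15. A larger pseudocount lowers the difference of genes with low values more than that of genes with high values.

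Shares of the TCF/LEF factors were 24.2% on S129 and 17.7% on CAST for Tcf7l1, 18.8% and 15.1% for Tcf7l2, and 9.91% and 18.1% for Lef1. With exon-union lengths they were 61.2% for Tcf7, 9.36% for Tcf7l2 and 7.58% for Lef1, and with the longest coding transcript 16.5% for Tcf7l2. The log2 ratio of Gsk3b to Gsk3a was 1.56 on S129, 1.05 on CAST and 0.65 with a pseudocount of 1. That of Axin1 to Axin2 was 1.41 on S129, 1.67 on CAST, 2.89 with exon-union lengths, 2.56 with the longest coding transcripts and 1.34 with a pseudocount of 1. Depth limits Gsk3a most, with 13 to 30 reads per allele and library.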
